A study of Sus scrofa with 8 samples.

Results

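A set of 10 genes of the integrated stress response was followed in pig skin 3 h after intradermal IL-15, a cytokine that sustains NK and memory T cells, with CHAC1 at its head. The genes were taken by symbol from the 31907 Ensembl genes of the deposited count table, which held 1 row for each of the 10. CHAC1 was chosen from the injected-against-control comparison of these same biopsies, where it was called higher. The other 9 (CHAC2, ATF3, ATF4, DDIT3, DDIT4, TRIB3, ASNS, SESN2 and PSAT1) were chosen by their place in the same pathway or family. Differences between injected and control sites are therefore given for the 10 genes as a description. The call that chose CHAC1 is reported with its stability as part of that choice, and no p of this comparison is read as evidence on the 10 genes. The study sampled skin of 2 wild-type (WT) Yorkshire swine, pig 13 and pig 14. Each pig gave 2 biopsies from sites injected with 200 ng IL-15 in 100 µl of saline and 2 from control sites that had no intradermal IL-15. The labels do not say whether control sites received saline. Injected sites carried the number 12 and control sites the numbers 6 or 7, so the injection and the place on the skin cannot be told apart.

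The integrated stress response is a shared programme through which cells answer amino acid shortage, unfolded protein, haem deficiency or viral RNA. Kinases that sense these states phosphorylate the translation factor eIF2, which lowers protein synthesis in general while favouring translation of the mRNA of ATF4. ATF4 then activates genes for amino acid synthesis and import, for redox balance and, under lasting stress, for cell death. CHAC1 is among its target genes in human and mouse cells and encodes a cytosolic enzyme that cleaves the gamma-glutamyl group from glutathione. Because ATF4 is regulated largely at translation, its mRNA need not follow its protein, and only RNA was measured here.

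All 10 genes passed the filter on low counts. Total counts per biopsy ran from 28471089 to 36070107. Counts of the 10 genes ran from 18 for CHAC2 to 7915 for ATF4 in a single biopsy, so CHAC2 and DDIT3 were measured with the least precision. The skin markers were present, with the sum of 6 basal keratinocyte markers between 6760 and 21000 CPM (counts scaled to a common library size, with TMM correction for RNA composition) and that of 7 fibroblast markers between 19300 and 193000. The pig 13 control biopsy from site 7b stood apart. It held the lowest fibroblast sum (19300 CPM, against 77000 to 193000 in the others) and the highest sum of 6 neutrophil markers (409 CPM, against 44.6 to 144). Its sums of basal and differentiated keratinocyte markers were also the highest (21000 and 20900 CPM, against at most 15600 and 11000 in the others). Those of hair follicle and gland markers were the lowest (1050 and 544 CPM). In these whole biopsies fewer cells of a type and less RNA per cell cannot be told apart. The 4 biopsies of a group come from only 2 animals, and p-values below measure the spread between sites within those animals.

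The gene models bear on what some of the values mean. CHAC1 (ENSSSCG00000038521) lies on the minus strand of chromosome 1 at 130360513 to 130363308 in Sscrofa11.1, with 3 exons, and all of its exonic bases lie inside the RefSeq CHAC1 gene. Of the exonic bases of the ATF4 model (ENSSSCG00000000084, chromosome 5, 8738880 to 8745225), 24% lie inside the RefSeq gene of that name. For ASNS (ENSSSCG00000015340, chromosome 9, 77318213 to 77509020) the share is 44.2%, and its model runs across 190808 bases and over 2 other RefSeq loci. For ATF3 and TRIB3 the shares are 74% and 81.2%. The counts of these models may hold reads from outside the RefSeq genes. DDIT3 has 2 Ensembl models on the same strand of chromosome 5. The model with the symbol (ENSSSCG00000044553, 22785441 to 22791134) shares 793 of its 2127 exonic bases with the second model (ENSSSCG00000050998, 22785441 to 22789829), and 488 of them also with MARS1 on the opposite strand. The sources used here do not give whether reads in shared exons were counted, or for which model. DDIT3 values are therefore uncertain. The DDIT3 model also reaches into the span of the RefSeq gene MBD6. The other 9 models shared no exonic base with another Ensembl gene. The CHAC2 model (chromosome 3, 87405974 to 87416260) lies inside the span of the RefSeq gene ASB3. Whether reads from ASB3 entered the low counts of CHAC2 was not tested.

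**Figure D1:**
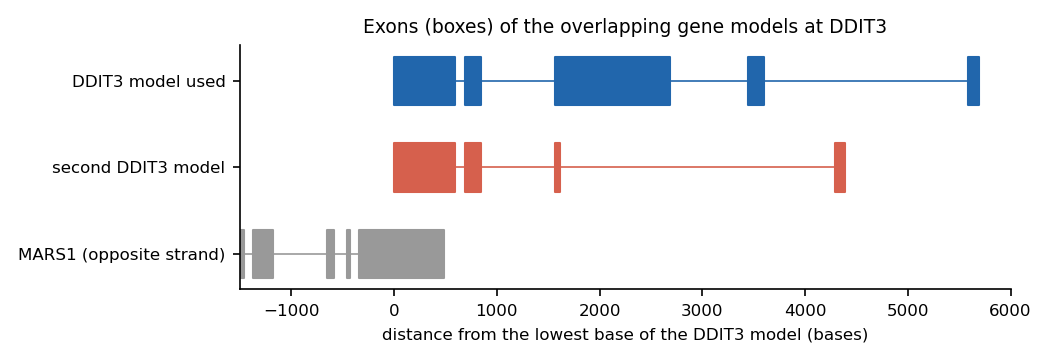
Exons of the 2 Ensembl models at DDIT3 and of the 3' end of MARS1, drawn to scale as boxes along the distance in bases from the lowest base of the DDIT3 model. The first 590 bases and the next exon of 155 bases belong to both DDIT3 models, while the box of 1121 bases is almost all outside the second model.

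CHAC1 was the member with the largest difference between injected and control sites. In pig 13 it was at 85.4 CPM at site 12e and 109.0 CPM at site 12c after injection, and at 44.7 CPM at site 7b and 48.1 CPM at site 6b without it. In pig 14 it was at 147.5 CPM at site 12d and 172.9 CPM at site 12c after injection, and at 92.4 CPM at site 7e and 71.6 CPM at site 6b without it. Within each pig both injected sites were above both controls. Across pigs the groups overlapped, because the pig 14 control from site 7e was above the pig 13 injected site 12e. The injected biopsies averaged 128.7 ± 39.0 CPM and the controls 64.2 ± 22.3 CPM (SD, n = 4), a fitted 2.02-fold difference (log2 1.02 ± 0.12, SE, with pig in the model). It was the 1 member of 10 called by edgeR's quasi-likelihood test, at a Benjamini-Hochberg adjusted p under 0.05, beside 0.0352% of the 19862 genes tested that were called higher. Since CHAC1 was chosen for that call, nothing is read from this count. The share of counts from ribosomal RNA genes also separated the groups, at 0.221% to 0.528% in injected and 0.557% to 1.58% in control biopsies. Its part in this and the other differences between injected and control sites was not tested. The log2 difference was between 0.93 and 1.11 when any 1 biopsy was left out and 0.99 without the control from site 7b. The call itself ended without the pig 14 injected site 12d or 12c, the pig 13 injected site 12c, or the control from site 6b of pig 14 or of pig 13 (adjusted p from 0.0615 to 0.0843 in edgeR).

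**Figure D2:**
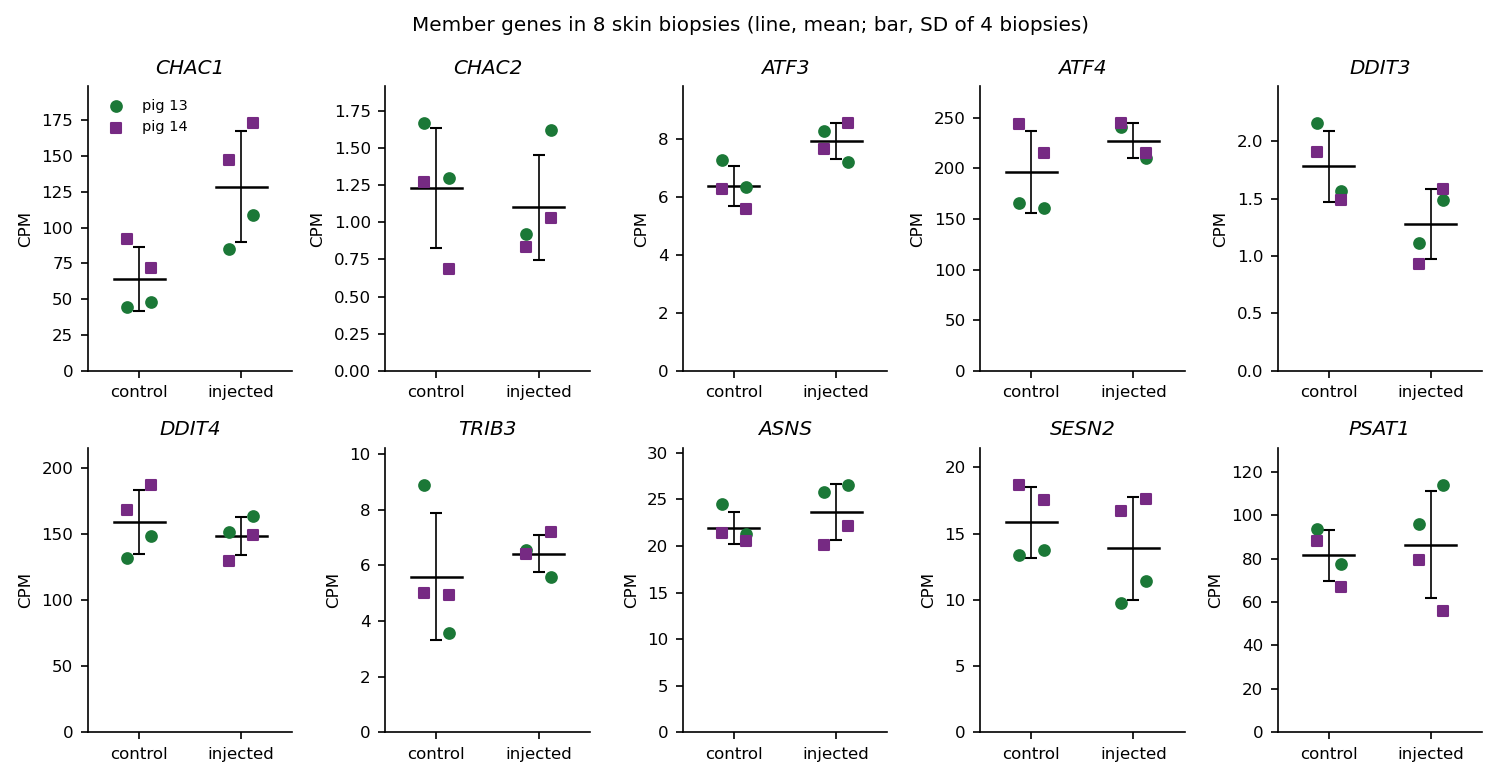
Level of each of the 10 genes (CPM, axis from 0) in control and injected biopsies, with pig 13 as green circles and pig 14 as purple squares. Lines are means and bars the SD of 4 biopsies. CHAC1 is higher at both injected sites of each pig, and SESN2 lies higher in pig 14 in both groups.

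CHAC2 is the paralog of CHAC1 and encodes a glutathione-degrading enzyme with slower turnover. It was at 0.83 to 1.62 CPM after injection and 0.69 to 1.67 CPM without it, from 18 to 61 counts, and the groups overlapped over nearly their whole range. Its log2 fold change was -0.15 ± 0.30 (SE). Per kilobase of gene model CHAC1 stood at 61.8 to 163 times the level of CHAC2 in injected biopsies and at 24.6 to 95.6 times in controls, so CHAC1 was the more abundant transcript of the pair in every biopsy.

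The transcription factors of the pathway differed less than CHAC1. ATF4, its central activator, was at 209.8 and 240.3 CPM at injected and 160.5 and 165.6 CPM at control sites of pig 13. In pig 14 it was at 214.9 and 244.5 CPM at injected and 214.9 and 243.9 CPM at control sites. The injected sites of pig 13 were thus above its controls, while the 2 groups of pig 14 covered the same range. Its log2 fold change over both pigs was 0.23 ± 0.12 (SE). ATF3, a stress-induced factor of the same bZIP class that is itself an ATF4 target, was at 7.21 to 8.56 CPM after injection and 5.61 to 7.29 CPM without it. In 3 of 4 injected biopsies ATF3 was above all controls, and the exception, the pig 13 site 12c, lay just below the control from site 7b. Its log2 fold change was 0.31 ± 0.14. DDIT3, also called CHOP, pairs with other bZIP factors and is linked to cell death under lasting stress. The model with its symbol had 27 to 79 counts and was at 0.93 to 1.58 CPM after injection and 1.49 to 2.16 CPM without it, with a log2 fold change of -0.48 ± 0.26. The second DDIT3 model had 4 to 22 counts and a log2 fold change of 0.50 ± 0.46, of the opposite sign, so no direction is given for DDIT3.

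Members that act as brakes showed no common direction. TRIB3, a pseudokinase that restrains ATF4 and the kinase AKT, was at 5.57 to 7.20 CPM after injection and at 3.56, 4.92, 5.01 and 8.90 CPM in controls. The highest control was the pig 13 biopsy from site 7b and the lowest that from site 6b of the same pig. The log2 fold change was 0.20 ± 0.26 with all biopsies. It was 0.57 without the pig 13 site 7b and 0.02 without the pig 13 site 6b. DDIT4, also called REDD1, holds back the growth kinase complex mTORC1 and is induced by hypoxia and glucocorticoids as well. It was at 151.3 and 163.4 CPM at injected and 131.8 and 148.0 CPM at control sites of pig 13, against 129.3 and 149.4 CPM at injected and 168.3 and 187.1 CPM at control sites of pig 14. Injected sites were therefore above controls in one animal and below them in the other, and the combined log2 fold change was -0.09 ± 0.12. SESN2, which senses leucine and also restrains mTORC1, was at 9.78 to 17.6 CPM after injection and 13.4 to 18.7 CPM without it. Both injected sites of pig 13 lay below its controls, whereas in pig 14 the groups overlapped. Its log2 fold change was -0.21 ± 0.11.

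The 2 amino acid synthesis enzymes overlapped between groups. ASNS, which makes asparagine and is a standard readout of amino acid shortage, was at 20.2 to 26.6 CPM after injection and 20.5 to 24.5 CPM without it (log2 fold change 0.10 ± 0.10, SE). PSAT1, an aminotransferase of serine synthesis, was at 55.9 to 114 CPM after injection and 67.1 to 93.5 CPM without it (0.05 ± 0.16). The lowest and highest PSAT1 values of the 8 biopsies were both from injected sites, one in each pig. Over the 10 members 6 log2 fold changes were above 0 and 4 below, with a median of 0.08 beside -0.01 over all tested genes. The median of the 10 genes thus does not show the difference seen for CHAC1.

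On the scale of CPM per kilobase of gene model, averaged over the 8 biopsies, DDIT4 was the highest member at 88.3 ± 11.0 (SD), followed by CHAC1 at 62.25 ± 29.3. The order of these 2 genes depended on the biopsy. CHAC1 was above DDIT4 at both injected sites of pig 14 (95.2 against 74.4 at site 12d and 111.6 against 85.9 at site 12c) and below it in the other 6 biopsies. The median ratio of CHAC1 to DDIT4 was 1.01 in injected and 0.405 in control biopsies. ATF4 at 39.4 ± 6.17 and PSAT1 at 35.4 ± 7.62 came next and overlapped with each other and with CHAC1. ASNS was at 6.15 ± 0.67, SESN2 at 3.48 ± 0.76, TRIB3 at 1.53 ± 0.41 and ATF3 at 1.02 ± 0.15, followed by CHAC2 at 0.82 ± 0.25 and DDIT3 at 0.72 ± 0.18. The ranges of TRIB3, ATF3, CHAC2 and DDIT3 all overlapped with one another. The levels of ATF4, ASNS, ATF3, TRIB3 and DDIT3 on this scale depend on gene models that differ from RefSeq.

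The response was next compared between the 2 pigs with an interaction term. For CHAC1 this term is not independent of the choice, because a gene called in a model without it tends to have similar responses in both animals. Its value is therefore a description. CHAC1 differed between injected and control sites by 1.07 ± 0.17 in pig 13 and by 0.97 ± 0.17 in pig 14 (log2, SE). The difference between these responses, pig 14 minus pig 13, was -0.10 ± 0.24. DDIT4 was the member with the smallest p of this term. Its response was 0.17 ± 0.13 in pig 13 and -0.35 ± 0.13 in pig 14, an interaction of -0.52 ± 0.19 (unadjusted p = 0.0211, adjusted p = 0.536 in edgeR). ATF4 had 0.47 ± 0.14 in pig 13 and 0.00 ± 0.14 in pig 14, an interaction of -0.46 ± 0.20 (unadjusted p = 0.0413, adjusted p = 0.591 in edgeR). Adjusted over all genes tested, 0 of 10 members passed in edgeR, DESeq2 or limma-voom, and 2 had an unadjusted p under 0.05, beside 8.22% of all genes. Of the 19862 genes 0% were called by edgeR and 86 by DESeq2. Without the pig 13 control from site 6b edgeR called 313 genes, and still no member.

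**Figure D3:**
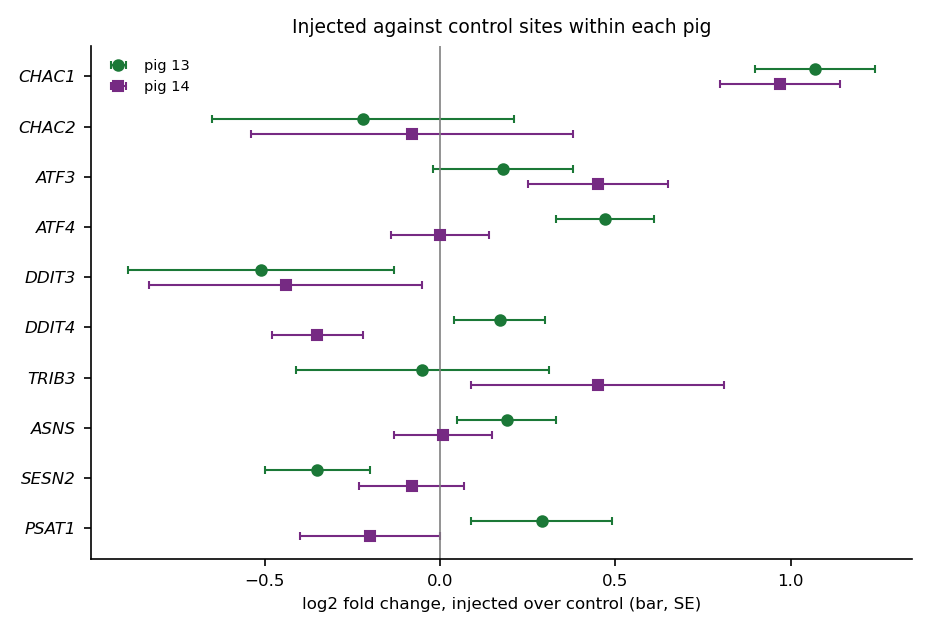
Log2 fold change of injected over control sites in pig 13 (green circles) and pig 14 (purple squares) for each member, with SE bars. CHAC1 lies near 1 in both pigs, while DDIT4 and ATF4 have the smallest p of the interaction among the members and miss the threshold over all genes.

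CHAC1 and SESN2 differed in level between the animals themselves. The contrast between pigs did not pick the genes, but it shares its residual spread with the call that chose CHAC1, and a low spread favours both. CHAC1 was higher in pig 14, at 121.1 ± 47.1 CPM against 71.8 ± 30.9 CPM in pig 13 (SD, n = 4 biopsies), 1.71-fold with treatment in the model (log2 0.77 ± 0.12, adjusted p = 0.0034 in edgeR). Both injected sites of pig 14 were above both injected sites of pig 13, and both of its controls above both controls of pig 13. SESN2 was also higher in pig 14, at 17.65 ± 0.81 CPM against 12.1 ± 1.85 CPM (SD, n = 4 biopsies), 1.47-fold (log2 0.55 ± 0.11, adjusted p = 0.0122 in edgeR). All 4 SESN2 values of pig 14 were above all 4 of pig 13. These were 2 of 10 members called higher in pig 14, beside 6.39% of all genes, and no member was called lower in edgeR, beside 4.34%. With an unadjusted p under 0.05, PSAT1 had -0.39 ± 0.16 and ASNS -0.22 ± 0.10 (adjusted p = 0.155 and 0.186 in edgeR). CHAC1 and SESN2 remained called when any 1 biopsy was left out, with 0.74 and 0.57 without the pig 13 control from site 7b. The adjusted p in these edgeR fits was at most 0.018 for CHAC1. For SESN2 it reached 0.0499, at the threshold. With total counts in place of TMM the median of all genes shifted from 0.00 to -0.21. SESN2 then had 0.35 and missed the threshold (adjusted p = 0.0546), while ASNS at -0.43 and PSAT1 at -0.59 passed it, and CHAC1 had 0.56 and passed. Fibroblast markers also differed between the animals, with sums of 137000 to 193000 CPM in pig 14 and 19300 to 109000 CPM in pig 13, and so did those of T and NK cells (25.8 to 53.8 against 10.9 to 18.3 CPM) and of mast cells (76.1 to 113 against 58.5 to 75.0 CPM). Their part in these differences was not tested. Only 2 animals were compared, so the difference is between them and not between kinds of pig.

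**Figure D4:**
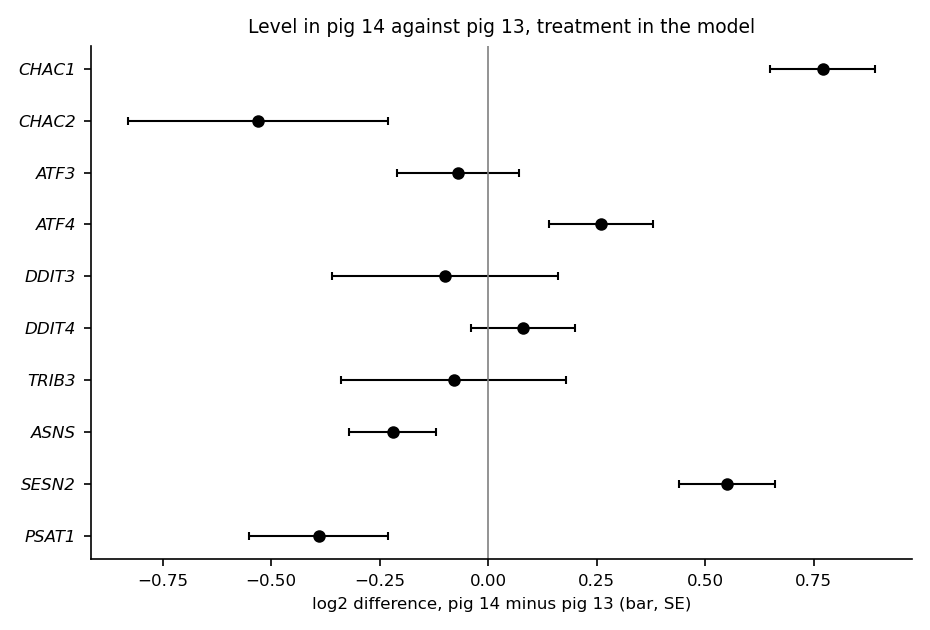
Log2 difference in level, pig 14 minus pig 13, for each member with its SE, from the model with treatment as a term. CHAC1 at 0.77 and SESN2 at 0.55 are the 2 members called.

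The wider pathway was read from 13 lists of 166 symbols, of which 156 genes outside the 10 members were tested. None was called between injected and control sites over all genes in edgeR, DESeq2 or limma-voom, while 8 were higher and 2 lower at an unadjusted p under 0.05, beside 474 higher and 428 lower (4.54% together) of all 19862 genes. The sensing arm showed small differences. The list of this arm held 15 tested genes, among them eIF2 kinases, exchange factor subunits, phosphatase subunits and DELE1. None had an unadjusted p under 0.05 in edgeR, and log2 fold changes ran from -0.11 to 0.20. PPP1R15A, the stress-induced phosphatase subunit that reverses eIF2 phosphorylation, was at 41.2 to 48.4 CPM after injection and 31.9 to 44.7 CPM without it (log2 0.20 ± 0.10, adjusted p = 0.964 in edgeR). PPP1R15B, its constitutive counterpart, had 0.14 ± 0.09. Of 10 bZIP partners, JDP2 had 0.25 ± 0.14 and ATF2 0.11 ± 0.08.

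The output arm was similar. Over 14 enzymes of amino acid synthesis and one-carbon metabolism the median was 0.06, with 0.32 ± 0.19 for CTH, the enzyme that makes cysteine from cystathionine, and 0.16 ± 0.14 for the branched-chain aminotransferase BCAT1. Over 11 amino acid transporters the median was -0.08, with 0.22 ± 0.11 for the glutamine carrier SLC1A5 and 0.19 ± 0.10 for SLC3A2, the heavy chain shared by several carriers. Over 18 aminoacyl-tRNA synthetases it was 0.01, with a range of -0.10 to 0.19 and with 0.19 ± 0.10 for YARS1 and 0.18 ± 0.10 for VARS1, which charge the tRNAs of tyrosine and valine. The 7 tested secreted and apoptosis targets had a median of -0.02, with -0.21 ± 0.15 for BBC3 and 0.21 ± 0.13 for PMAIP1, both of which promote apoptosis. The 17 genes of the ATF6 and XBP1 branch, which raises chaperones of the endoplasmic reticulum, had a median of 0.01 and a range of -0.10 to 0.21, with 0.15 ± 0.09 for the chaperone HYOU1 and 0.21 ± 0.11 for the co-chaperone DNAJB11. No gene of these lists had an unadjusted p under 0.05.

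The 10 genes below that level of p were in lists of glutathione metabolism, of other inputs to the members and of their paralogs. Among 13 genes of glutathione turnover and synthesis, where CHAC1 acts, GGT6 had -0.32 ± 0.13 (unadjusted p = 0.0348 in edgeR) and the reductase GSR, which missed that level, -0.32 ± 0.16 (0.0674). Among 10 tested p53 targets GADD45A, a growth arrest gene, had 0.51 ± 0.15 (47.2 ± 13.0 CPM with injection, 32.4 ± 6.91 CPM without, SD, n = 4, adjusted p = 0.895 in edgeR). The cyclin CCNG1 had -0.24 ± 0.15. Among 10 glucocorticoid targets the NF-kB inhibitor NFKBIA had 0.53 ± 0.13, at 103 to 153 CPM after injection and 73.7 to 96.3 CPM without it (adjusted p = 0.746 in edgeR). NFKBIA is also a target of NF-kB. ERRFI1, a brake on the EGF receptor, had 0.39 ± 0.15. Among 11 hypoxia targets EGLN3, an oxygen-sensing hydroxylase, had -0.56 ± 0.21 and CA9, a carbonic anhydrase, 0.39 ± 0.17, of opposite sign. Of 12 tested paralogs of the members 4 were higher at an unadjusted p under 0.05, a level that 474 of all 19862 genes reached in that direction. TRIB2, a relative of TRIB3, was at 14.0 to 16.7 CPM after injection and 10.2 to 12.1 CPM without it (0.39 ± 0.11, adjusted p = 0.879 in edgeR). The genes of these lists are named for their small p in this comparison. Separate ranges, as for NFKBIA and TRIB2, therefore largely follow from that choice. BATF3, a bZIP factor of lymphoid and dendritic cells, was at 1.06 to 2.35 CPM against 0.302 to 1.41 CPM (1.02 ± 0.27, adjusted p = 0.807 in edgeR). The 11 mTORC1 regulators ran from -0.19 ± 0.11 for the lysosomal arginine sensor SLC38A9 to 0.15 ± 0.12 for CASTOR2.

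**Figure D5:**
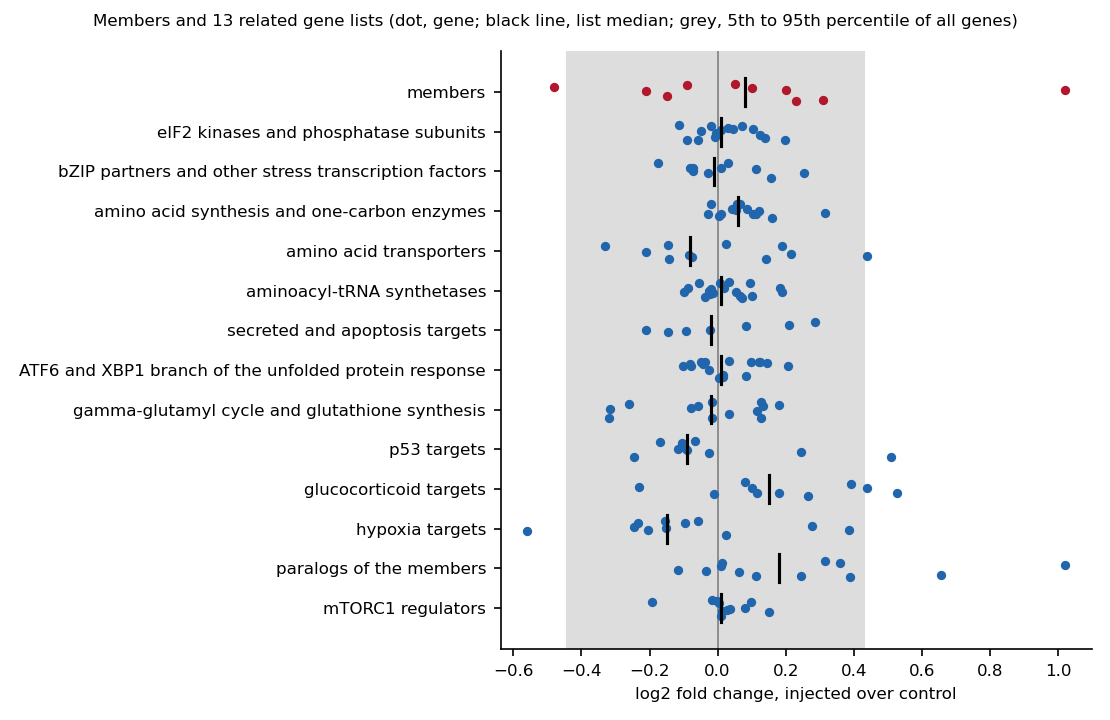
Log2 fold change of injected over control sites for each member (red) and each gene of 13 related lists (blue), with the list median as a black line. The grey band spans the 5th to 95th percentile of all tested genes, -0.44 to 0.43. CHAC1 and BATF3 are the dots at 1.02, and most genes of every list lie inside the band.

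The genes whose pattern was most like that of CHAC1 were sought among tested genes with a mean of at least 1 CPM. The measure was Pearson's r of log2 CPM over the 8 biopsies after the mean of each pig was removed, a description that mostly follows the injected-against-control difference. The 5 highest were HOXC10 (r = 0.986), DOHH (0.972), HOXA9 (0.971), TK2 (0.967) and DUSP5 (0.963). HOXC10 and HOXA9 belong to the homeobox genes that give cells their positional identity in the body. HOXC10 was at 2.46 and 3.23 CPM at injected sites of pig 13, 4.25 and 4.81 CPM at those of pig 14, and 0.191 to 0.494 CPM in controls. Like CHAC1, it was higher at the injected sites of pig 14 than at those of pig 13. Unlike for CHAC1, its control values overlapped between the pigs, at 0.191 and 0.494 CPM in pig 14 and 0.191 and 0.302 CPM in pig 13. At injected sites HOXA9 and DUSP5 were also higher in pig 14, DOHH overlapped and TK2 was lower in pig 14. DUSP5, a nuclear phosphatase of the kinase ERK, was at 54.2 to 82.7 CPM after injection and 34.3 to 63.7 CPM without it. HOXA9 was at 15.5 to 27.7 CPM at injected and 1.95 to 3.6 CPM at control sites. HOXC10 and HOXA9 were called higher at injected sites, with log2 fold changes of 3.61 ± 0.30 and 2.85 ± 0.22 (SE, adjusted p = 0.0014 and 0.000904 in edgeR). DUSP5 differed by 0.51 ± 0.11. DOHH, which completes the hypusine residue of a translation factor, and the mitochondrial kinase TK2 differed by only 0.31 ± 0.11 and 0.15 ± 0.08. By the same measure ATF3 had r = 0.774 with CHAC1, ASNS 0.613 and ATF4 0.603, while SESN2 had -0.631, DDIT3 -0.531 and CHAC2 0.0148. The DDIT3 value is of the model with the symbol only, and no direction is read from it. With 8 biopsies from 2 animals these values are given without a test.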

How the data were processed

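RNA from 8 whole skin biopsies, depleted of ribosomal RNA per the labels' protocols, was sequenced by the authors. Per the submitters' processing notes, the tools included STAR 2.5.1a with bcl2fastq, and featureCounts 1.4.6-p5, and the build was Sscrofa11.1. The deposited series table gives the count of reads for each Ensembl gene in whole numbers, per the file headers. The files of single biopsies also hold CPM, which the authors computed from counts assigned to genes, and RPKM, in which the authors divided CPM by gene length. These columns were only checked against the counts. One single file ended after 607 genes, and the series table was used throughout. Of its 32388 rows, 425 genes stood on several with identical counts and were kept once.

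Genes were filtered with filterByExpr of edgeR 4.0.16 (minimum count 10), leaving 19862, with TMM scaling. Genes were tested with edgeR's robust quasi-likelihood F test on treatment and pig, with Benjamini-Hochberg adjustment over all genes. The pig term and an interaction were tested in the same way. The SE is the log2 fold change divided by the root of F. The pig pairs the biopsies because the labels give the animal, and deviations from group means had correlations of 0.306 to 0.645 for biopsies of the same pig and of -0.603 to -0.329 for those of different pigs. The deviations cancel out within each group, so positive values for the same pig bring negative ones for different pigs. The negative values therefore add no separate support. DESeq2 1.42.0, limma-voom (limma 3.58.1), other scalings, no filter, no pig term, single pigs and leaving out each biopsy were run as alternatives. The members and lists were chosen with earlier results of these data known. The text names all members, from each list every called gene and the 2 with the smallest p, and the 5 genes most like CHAC1. The procedure was tested on simulated data, where the share of false calls for treatment and for the interaction was above the nominal level, so calls near the threshold are less certain than their adjusted p states. Gene symbols and RefSeq positions come from tables of gene names for Sscrofa11.1.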

Additional observations from a re-analysis of the deposited data

How the results depend on the processing

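The CHAC1 difference between injected and control sites kept its sign in all 16 alternatives, at 0.98 to 1.07 (log2) in the 8 that kept every biopsy of the pigs fitted and 0.93 to 1.11 when 1 biopsy was left out. CHAC1 was chosen on this comparison of the same biopsies, so the kept sign follows from that choice and is no support. Without the pig as a replicate block the CHAC1 difference lay in the first of these ranges and 0 members were called, and with 1 pig alone also 0. Leaving out 1 biopsy gave 0 to 1 members called higher, 3 to 19 genes called higher and 0 to 1 lower. DESeq2 called 48 genes higher and 10 lower, pig 13 alone 30 higher, and pig 14 alone 16 higher and 1 lower. In pig 13 alone 1 gene of the wider lists was called, GADD45G. For the interaction DESeq2 called 86 genes and edgeR without a filter 8, and 0 to 313 were called when 1 biopsy was left out, the highest without the pig 13 control from site 6b. Between the pigs 4857 genes were called with total counts in place of TMM, and 1142 to 2240 when 1 biopsy was left out, against 2133. The count was lowest without the pig 14 sites 12d, 7e and 6b and the pig 13 site 12e (1142, 1191, 1195 and 1215). The causes of these shifts were not tested. Depth limits CHAC2 and DDIT3, with at most 61 and 79 counts in a biopsy.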

Other observations

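Several genes of the wider lists differed in level between the 2 pigs. Of the 156 genes 8 were called higher in pig 14 by edgeR, beside 6.39% of all genes, and 12 lower, beside 4.34%. The list genes called higher were thus no more common than among all genes, and those called lower were more common. Among 13 genes of glutathione turnover and synthesis 4 were called lower in pig 14, beside 4.34% of all genes. GGCT, which acts on the gamma-glutamyl dipeptides released from glutathione, was at 14.0 to 24.4 CPM in pig 14 and 26.3 to 29.9 CPM in pig 13 (log2 -0.61 ± 0.14, adjusted p = 0.0189 in edgeR). The catalytic and modifier subunits of the enzyme that starts glutathione synthesis, GCLC and GCLM, had -0.57 ± 0.12 and -0.59 ± 0.10, and GGT6 -0.93 ± 0.13. These 4 are named because they were called between the pigs, so their separate ranges largely follow from that call. CHAC1 was higher in pig 14, and a link to these 4 genes was not tested. Among ATF4 partners and targets ATF5, at 11.4 to 11.7 CPM in pig 14 and 7.58 to 8.04 CPM in pig 13, JDP2, NUPR1, the proline enzyme PYCR1 and WARS1 were called higher in pig 14, and GPT2, GOT1 and HARS1 lower. WARS1 and the kinase EIF2AK2 are also induced by interferon. EIF2AK2 (0.50 ± 0.09), DELE1, which relays mitochondrial stress to the pathway (0.37 ± 0.11), and BATF3 (1.28 ± 0.27) were the others called higher. The calls of DELE1 and HARS1 lay at the threshold (adjusted p = 0.049 and 0.0497 in edgeR). The others called lower were the p53 targets CDKN1A and PHLDA3, the phosphatase DUSP1 and the hypoxia targets BNIP3 and ADM, from -0.37 ± 0.10 for CDKN1A to -0.81 ± 0.18 for ADM. The lists were chosen with earlier results known, the list counts were not tested, and the marker differences between the pigs apply to them as well.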
